A study of Drosophila melanogaster with 2 samples.

Results

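The 10 genes described here are the core E2F and cyclin regulators of the Drosophila cell cycle: E2f1, E2f2, Rbf, CycE, CycD, CycA, CycB, CycB3, stg and dap. They were chosen by name, 10 of 13945 protein-coding genes on the 6 chromosome arms, and the binding of Corto to them was read from ChIP-seq peak lists. The material was whole Drosophila melanogaster embryos of both sexes, aged 0 to 24 h, from a transgenic line that stably carries Corto with GFP fused to its C terminus, and the precipitation used an anti-GFP antibody. There was 1 group with 2 biological replicates and no other condition, so no groups are compared. The strain is labelled corto-GFP, with an insertion described as targeting corto. Whether an untagged copy of corto remained is not given in the labels, nor is the promoter of the fusion. Each gene was searched for peak summits in its annotated span with 5 kb on either side, called its window here, and within 500 bp of each transcription start site (TSS).

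Progress through the cell cycle is set by cyclins bound to cyclin-dependent kinases (Cdks) and by the E2F transcription factors they release. E2f1 activates genes of DNA synthesis together with its partner Dp, E2f2 is mainly a repressor, and the retinoblastoma protein Rbf holds E2F in check until cyclin D and cyclin E complexes phosphorylate it. CycE with Cdk2 starts DNA replication, dap encodes the inhibitor of that complex, CycA, CycB and CycB3 act in mitosis, and stg encodes the Cdc25 phosphatase whose transcription times the later embryonic divisions. Corto is a chromodomain protein of the group of Enhancers of Trithorax and Polycomb.

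The sequences below are dm6 reference sequence at the sites the results turn on, written 5′ to 3′ on the strand of the cell cycle gene, which is the minus strand in each case. Capitals mark matches on either strand to the searched motifs GAGAG (bound by GAGA factor), E2F (TTTCCCGC, TTTGGCGC, TTTCGCGC and TTTGCCGC), DRE (TATCGATA) and E-box (CACGTG). Summit windows are 201 bases centred on the summit and upstream windows are the 250 bases before a TSS. The first is the promoter summit of E2f1 at chr3R:21633086-21633286, and the second the weaker of a pair of intronic E2f1 summits, at chr3R:21641734-21641934. The stronger of that pair and the remaining intronic E2f1 summit are not printed and held none of these motifs. The third is the strongest summit of all 10 windows, at chr3R:29256270-29256470 between stg and CG45544. The fourth is an intronic summit of CycE at chr2L:15743721-15743921. The last pair are the promoters of CycE-RC, CycE-RD and CycE-RF at chr2L:15746611-15746860 and of CycA at chr3L:11833579-11833828, where only weaker entries lay.
E2f1 promoter summit: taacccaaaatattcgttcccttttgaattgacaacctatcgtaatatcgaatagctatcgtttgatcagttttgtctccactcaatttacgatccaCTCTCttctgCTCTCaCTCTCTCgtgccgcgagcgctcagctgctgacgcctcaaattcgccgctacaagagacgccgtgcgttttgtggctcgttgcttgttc
E2f1 intron summit: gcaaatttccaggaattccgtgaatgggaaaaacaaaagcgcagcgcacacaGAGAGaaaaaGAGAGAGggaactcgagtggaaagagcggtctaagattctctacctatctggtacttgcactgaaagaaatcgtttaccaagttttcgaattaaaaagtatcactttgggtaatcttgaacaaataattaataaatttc
stg and CG45544 summit: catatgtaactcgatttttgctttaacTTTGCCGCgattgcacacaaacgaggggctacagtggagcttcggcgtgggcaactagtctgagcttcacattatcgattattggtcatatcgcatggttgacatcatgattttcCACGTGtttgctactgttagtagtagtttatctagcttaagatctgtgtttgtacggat
CycE intron summit: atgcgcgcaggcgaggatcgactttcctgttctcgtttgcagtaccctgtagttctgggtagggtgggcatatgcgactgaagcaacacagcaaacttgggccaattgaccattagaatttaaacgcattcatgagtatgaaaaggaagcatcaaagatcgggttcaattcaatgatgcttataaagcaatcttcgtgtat
CycE upstream: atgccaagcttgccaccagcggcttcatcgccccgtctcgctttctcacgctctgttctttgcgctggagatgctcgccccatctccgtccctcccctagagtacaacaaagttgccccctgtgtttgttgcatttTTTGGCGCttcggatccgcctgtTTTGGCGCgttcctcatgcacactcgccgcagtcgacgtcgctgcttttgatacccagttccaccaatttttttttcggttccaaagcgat
CycA upstream: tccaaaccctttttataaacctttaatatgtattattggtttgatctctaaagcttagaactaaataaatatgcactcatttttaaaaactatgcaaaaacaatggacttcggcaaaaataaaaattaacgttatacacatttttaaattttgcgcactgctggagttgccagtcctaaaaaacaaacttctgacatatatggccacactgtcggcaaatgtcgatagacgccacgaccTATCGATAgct

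All peak signals are the values the authors deposited, on a scale that the sources used here do not state, and ranks are given within 1 list. Where the signals of both replicates are printed they stand side by side, and whether their scales match is not stated. The optimal set, reproducible between the replicates by the irreproducible discovery rate (IDR), held 2644 peaks with a median signal of 113. The pooled list and each replicate's list held 30000 entries of peaks and background each. No read counts were used, so the depth is unknown. Whole embryos mix cell types and stages, so strong binding in few cells and weak binding in many cannot be told apart.

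Optimal Corto-GFP summits lay in the windows of most of these genes, in part at neighbouring genes, and at the promoters of 2. Of the 10 genes, 7 had an optimal summit in their window (E2f1, Rbf, CycE, CycA, CycB, stg and dap), where 28.5% of all protein-coding genes had one. Only E2f1 and dap had one within 500 bp of a TSS, 2 of 10 beside 9.90% of all genes. E2f2, CycD and CycB3 had none in either place. All 10 genes are longer than the median gene of 2166 bp, and longer genes have wider windows. Among genes over 20000 bp, as E2f1 and CycE are, 46.2% had a summit in the window, and the share was 35.8% from 5000 to 10000 bp, the class of CycA. It was 29.9% from 2500 to 5000 bp, the class of Rbf, CycD, CycB, CycB3, stg and dap, and 22.7% up to 2500 bp, the class of E2f2. Promoter summits were also more frequent in long genes, at 19.9% of genes over 20000 bp, the class of E2f1, and 11.8% from 2500 to 5000 bp, the class of dap.

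The 7 windows held 15 distinct optimal summits with signals from 85.2 to 304 and a median of 109. They numbered 6 at E2f1, 2 each at CycE, CycB and stg, and 1 each at Rbf, CycA and dap. Of the 15, 8 lay inside the span of the cell cycle gene, and for 9 the nearest TSS of a protein-coding gene was that of the cell cycle gene. Promoters held 7 of the 15, against 43.7% of all 2644 optimal summits, but 5 of these were promoters of neighbours: InR, Archease, RpL10Ab, blw and CG45544. Introns or non-coding exons held 5 summits (38.2% of all), and 1 each lay in a 5′ UTR (1.29%), a 3′ UTR (0.908%) and between genes (15.8%). None lay in coding sequence, which held 0.113% of all 2644 optimal summits.

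**Figure D1:**
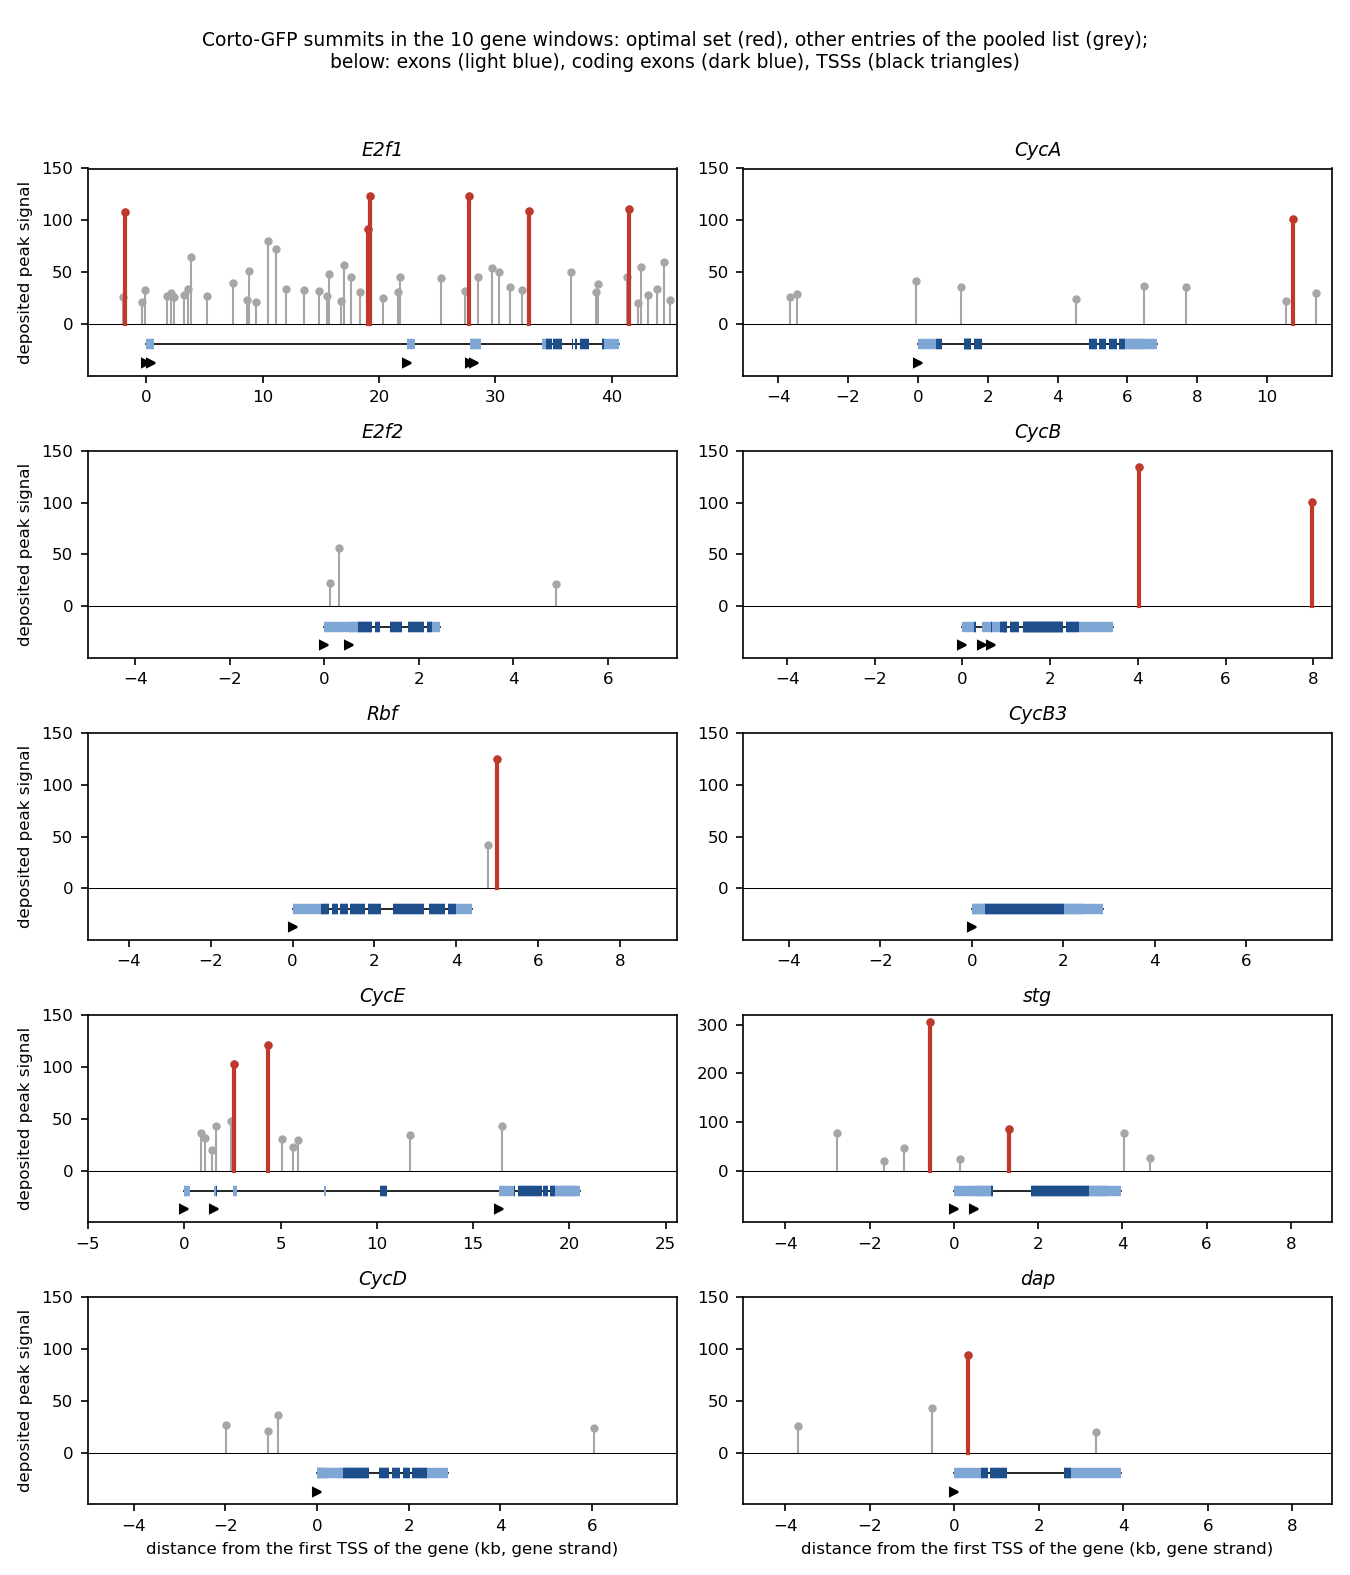
Positions and deposited signals of optimal summits (red) and of the other pooled-list entries (grey) in the window of each gene, as distance in kb from the gene's first TSS along its strand. The signal axis runs higher for stg, where the summit of 304 lies upstream of the gene, between stg and CG45544. E2f1 shows 6 optimal summits in its window, 4 of them inside its span, and CycB3 shows no entry.

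E2f1, the activating E2F gene, carried the most optimal summits of the 10. It spans 40568 bp at 3R 21620304 to 21660871 on the minus strand, with 5 TSSs. Its window held 6 optimal summits, and 45 genes (0.323%), E2f1 among them, had at least 6. That share is over genes of all lengths, most with narrower windows, and the mean for genes over 20000 bp was 1.18 summits. Taking the 2644 strongest entries of replicate 2 alone, the E2f1 window had 3, as many as the stg window, and it had 2 of the 1322 strongest optimal peaks. Inside the span alone it had 4, a number that 0.588% of all genes and 6.71% of the 1013 genes over 20000 bp reached. The pooled list had 51 summits in the E2f1 window, or 10.1 per 10 kb, against 2.24 per 10 kb over the 6 arms, and 0.43% of genes had as high a density.

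The E2f1 promoter summit lay at 3R 21633186, 113 bp upstream of the TSS of E2f1-RA and E2f1-RE, with a pooled signal of 123 and rank 1119 of 2644. It fell within 493 bp of the E2f1-RD start as well, and inside an intron of longer E2f1 transcripts and the antisense gene asRNA:CR46055. The 2 replicates ranked it differently. Replicate 1 had a summit 11 bp away with a signal of 75.4, its rank 795, and replicate 2 one 48 bp away with 42.5, its rank 3187. The summit thus stood among the 2644 strongest entries of replicate 1 and outside those of replicate 2. As the printed sequence shows, 4 overlapping or neighbouring GAGAG matches start −3, 7, 13 and 15 bp from this summit on the gene strand.

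The other 3 summits within the E2f1 span lay in its introns. A pair 200 bp apart, at 3R 21641634 (signal 123) and 3R 21641834 (91.2), stood 3140 and 3340 bp upstream of the E2f1-RC start. Replicate 1 had separate summits at both, with signals of 42 and 39.1, whereas the nearest replicate 2 summit was the same for both, with a signal of 89.8 and rank 533. The second of the pair had 3 GAGAG matches and the first had none. The summit at 3R 21628012 (signal 109), 4681 bp downstream of the nearest E2f1 start, had 75.1 in replicate 1 and 32.7 in replicate 2, ranks 803 and 5300.

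The outer summits of the E2f1 window belonged to neighbours by distance. The summit at 3R 21619368 (signal 111, with 55.6 and 61.5 in replicates 1 and 2) was 936 bp past the end of E2f1 and 47 bp upstream of a start of InR, the insulin receptor gene. The summit at 3R 21662657 (108, with 60.9 and 45.4) was 1786 bp upstream of the first E2f1 start and 315 bp inside Archease, which encodes a cofactor of RNA ligation. The microRNA genes mir-11 and mir-998 lie in introns of E2f1 and had no optimal summit within 2511 bp. A weaker pooled entry with a signal of 38.5 (rank 10230) lay 22 bp from mir-998.

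E2f2, the repressing E2F gene, had no optimal summit within 81153 bp of its span at 2L 21154293 to 21156749, a distance that 11.2% of genes reached. The nearest, with a signal of 158, was at Hr39, a nuclear receptor gene. In the pooled list E2f2 did have a promoter entry, at 2L 21156429, 197 bp upstream of the E2f2-RA start, with a signal of 56.2 and rank 5271. Both replicates held it, with signals of 23.7 (58 bp away) and 34.4 (56 bp away).

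Rbf, the retinoblastoma gene at X 797090 to 801479, had its only optimal summit 611 bp past its 3′ end, at X 796479, in the 3′ UTR of the convergent gene CG16989. The pooled signal was 125. Replicate 1 had 42.2 there (rank 2839) and replicate 2 had 69.9 (rank 1031). No list had an entry within 500 bp of the Rbf start, and the nearest pooled summit was 4781 bp downstream of it. The summit window held 1 E-box, a motif in 2.00% of all optimal summit windows.

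CycD, the cyclin that acts with Cdk4 on growth and on Rbf, had no optimal summit in its window at X 15906822 to 15909676 with its flanks. The nearest lay 19910 bp from its span, a distance that 44% of genes reached, at tay, with a signal of 85.5. Its pooled window held 4 weak entries, the strongest with a signal of 35.9 (rank 11472) 861 bp upstream of its start.

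CycE, the cyclin of S phase entry, had both of its optimal summits within the gene at 2L 15727581 to 15748150. The summit at 2L 15743821 was in an intron, 2789 bp downstream of the start shared by CycE-RC, CycE-RD and CycE-RF. Its pooled signal was 121, with 51.9 in replicate 1 (rank 1822) and 76.6 in replicate 2 (rank 806). The summit at 2L 15745547 was 1063 bp downstream of the same start, in a 5′ UTR of 1 annotated form and an intron of others, with a signal of 103, and 45.1 and 58.5 in replicates 1 and 2. Both summits were among the 2644 strongest entries of each replicate.

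The CycE promoters themselves held only weaker entries. The pooled list had a summit 91 bp downstream of the CycE-RC start (signal 43) and another 120 bp downstream of the CycE-RB start (42.8). Replicate 2 had these entries, with signals of 32.1 and 28.4, and the nearest replicate 1 summits were 552 and 4801 bp away. A weaker pooled entry 455 bp upstream of the CycE-RC start (31.2) was matched in both replicates, at 6 bp with a signal of 17.5 in replicate 1 and at 27 bp with 16.4 in replicate 2. A further one 119 bp upstream (19.8) was matched in replicate 2, 14 bp away, and the nearest replicate 1 summit was 342 bp away. Upstream of the CycE-RC start, 2 E2F matches start at −114 and −91, as capitals in the printed sequence show. CycE is a known E2F target, and the motif was in 6.73% of all 19607 promoter windows of 300 bases (250 before to 50 from the TSS).

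dap, the p21 and p27 family inhibitor of the CycE kinase, was the other gene with an optimal promoter summit. It lay at 2R 9712635, 314 bp downstream of the only dap start, in the 5′ UTR, with a signal of 94.4 and rank 1922. Replicate 1 had a signal of 35.7 there (rank 4036) and replicate 2 one of 61.1 (rank 1443). The order of the replicates was thus the reverse of that at the E2f1 promoter. The summit stood among the 2644 strongest entries of replicate 2 alone.

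CycA and CycB, both mitotic cyclin genes, had optimal summits beyond their 3′ ends and none at their starts. The CycA summit, at 3L 11822846 (signal 102, with 51.5 and 48.3 in replicates 1 and 2), was 3873 bp past the gene and 5 bp upstream of the start of RpL10Ab, a ribosomal protein gene. At the CycA start itself the pooled list had an entry 54 bp upstream with a signal of 41.7 (rank 8893). The nearest replicate 1 summit was 89 bp from that entry (signal 22.8), and the nearest replicate 2 summit was 212 bp from it (30.5). The CycA promoter and the RpL10Ab summit window each held 1 DRE, a motif in 7.98% of promoter windows and 2.42% of optimal summit windows. CycB had a summit at 2R 22802926 (134, with 71.2 and 67 in replicates 1 and 2), in the interval between convergent genes, 595 bp past the CycB end and 746 bp past the end of blw, which encodes a subunit of the mitochondrial ATP synthase. Its other summit, at 2R 22798979 (101, with 62.9 and 42.1), was 120 bp upstream of the blw start. The CycB-RC promoter held 1 E2F match at −108.

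CycB3, the third mitotic cyclin gene, was the emptiest of the 10. The window around its span at 3R 24867934 to 24870816 had 0 pooled and 0 replicate 2 entries, and 1 entry of replicate 1 with a signal of 17.9 (rank 14459) 333 bp upstream of the start. The nearest optimal summit lay 5924 bp upstream, at CG3744, with a signal of 107. That distance was reached by 68.9% of all genes, so an optimal summit lay nearer to CycB3 than to most genes. The CycB3 promoter held Motif 1, the element bound by M1BP, which was in 3.84% of all promoter windows.

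stg, the Cdc25 phosphatase gene at 3R 29251826 to 29255800, stood beside the strongest summit of all 10 windows. That summit, at 3R 29256370, had a signal of 304 and rank 111 of 2644. Both replicates gave it a signal of 148, at ranks 121 and 126. It lay 570 bp upstream of the stg-RB start, just outside the 500 bp limit, and 115 bp upstream of CG45544, which starts 685 bp from stg on the opposite strand. The summit nearest to the limit on the inside was that of dap, at 314 bp from its start, apart from the E2f1 summit measured from E2f1-RD. Within 1000 bp of a start, 3 genes had a summit (E2f1, stg and dap), beside 12.0% of all genes, and within 250 bp 1 did (E2f1), beside 7.72%.

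The window of this summit between stg and CG45544 held 1 E2F match, starting at −73, and 1 E-box at 42. These motifs were found in 3.82% and 2.00% of all optimal summit windows. The called peak ran from 3R 29256275 to 29256420, and this E2F match lay outside it, on the side of CG45544. Another E2F match started at −13 in the stg-RB promoter. The other summit of the stg window, at 3R 29254487 in a stg intron 838 bp downstream of the stg-RA start, was weak. It had a pooled signal of 85.2 and rank 2398, with 37.5 in replicate 1 and 57 in replicate 2.

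Over the 20 TSSs of the 10 genes, 9 promoter windows held GAGAG, against 33.1% of all promoter windows, 3 held E2F (at CycE, CycB and stg), 2 Motif 1, 1 DRE and 0 E-box (4.01% of all). Over the 15 summit windows, 4 held GAGAG (30.4% of all optimal windows), 2 E-box, 1 E2F, 1 DRE and 0 Motif 1 (0.605%). TSSs of 1 gene share sequence, and a match describes letters only. The median GC content of the 15 windows was 41.3%, against 36.1% over all optimal summit windows.

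Each replicate's full list had a summit within 200 bp of all 15 optimal summits, and 96.5% of all optimal peaks had such matches in both lists. The optimal set was derived from these replicates, so this is in part built in. Only 6 of the 15 were among the 2644 strongest entries of both replicates, against 53.9% of all optimal peaks. They were the summits at stg and CG45544, both CycE summits, the intergenic CycB summit, and those at the InR and RpL10Ab starts. Taking the 2644 strongest entries of each replicate on its own, dap was the only one of the 10 genes with a promoter summit in replicate 2 (8.78% of all genes) and E2f1 the only one in replicate 1 (11.8%). Summits in the windows were then found at 7 genes in replicate 2 (27.5% of all genes) and 6 in replicate 1 (32.2%). The replicate 1 set included E2f2 and neither Rbf nor dap. Among the 1322 strongest optimal peaks, 5 windows (18.0% of all genes) and 1 promoter (5.47%) had a summit.

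**Figure D2:**
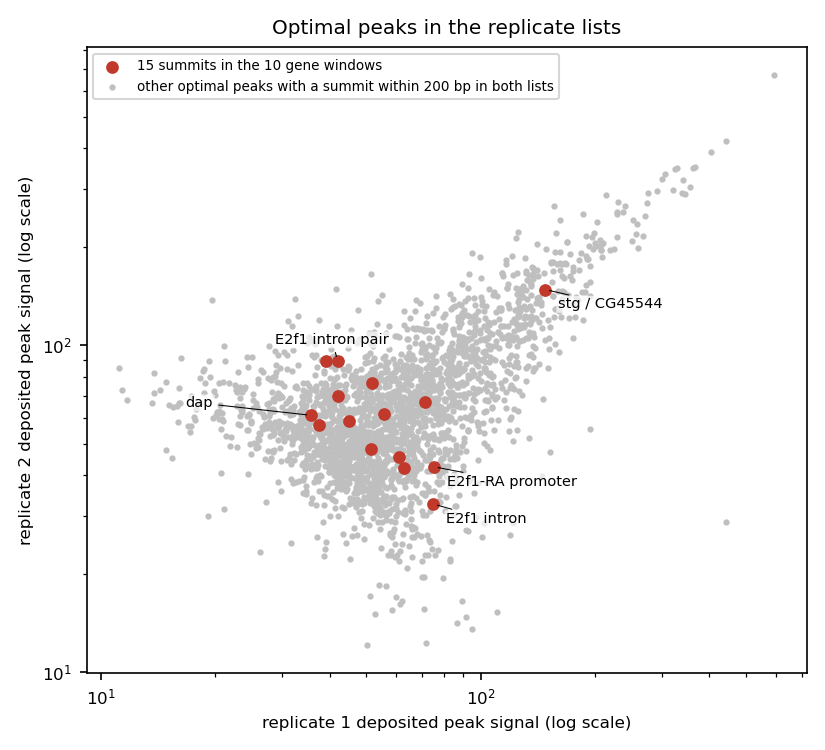
Deposited signal of the replicate 1 entry (horizontal, log scale) and the replicate 2 entry (vertical, log scale) nearest to each optimal peak, for the 15 summits in the 10 windows (red) and the other optimal peaks with an entry within 200 bp in both lists (grey). The summit between stg and CG45544 stands apart at 148 in both replicates. The E2f1 promoter summit (75.4 and 42.5) and the dap summit (35.7 and 61.1) lean to opposite replicates.

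In the pooled list, weaker entries included, 6 of the 10 genes had a summit within 500 bp of a TSS (E2f1, E2f2, CycE, CycA, stg and dap), beside 39.1% of all genes. The count was 5 within 250 bp (30.2%) and 7 within 1000 bp (47.1%). The stg entry, 148 bp downstream of the stg-RB start, was weak, with a signal of 24.7 (rank 21153). Its nearest summits in replicates 1 and 2 were 322 and 672 bp away. Pooled summits ran from 0 per 10 kb at CycB3 and 1.39 at Rbf to 5.72 at stg, 5.93 at CycA and 10.1 at E2f1, and the median over all genes was 1.96. Of the 10, 7 were above that median. Both mitotic genes CycA and CycB had optimal summits nearby, but CycA had 10 pooled entries in its window and CycB 2.

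The share of these genes with a summit nearby followed the width searched. Within the gene span alone 4 had one (E2f1, CycE, stg and dap), beside 7.49% of all genes. With flanks of 2 kb it was 6 (19.4%) and with 10 kb 8 (40.4%), CycB3 among them. When summits were assigned to the gene with the nearest TSS alone, non-coding genes included, 4 windows (E2f1, CycB, stg and dap; 10.6% of all genes) and the same 2 promoters (7.26%) remained. The CycE summits then went to lncRNA:CR44974, a non-coding gene within CycE. The summit of 304 went to CG45544, so stg kept only its intronic summit of 85.2. At E2f1 the intron pair went to the non-coding gene lncRNA:CR46056, and the outer summits went to InR and Archease.

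**Figure D3:**
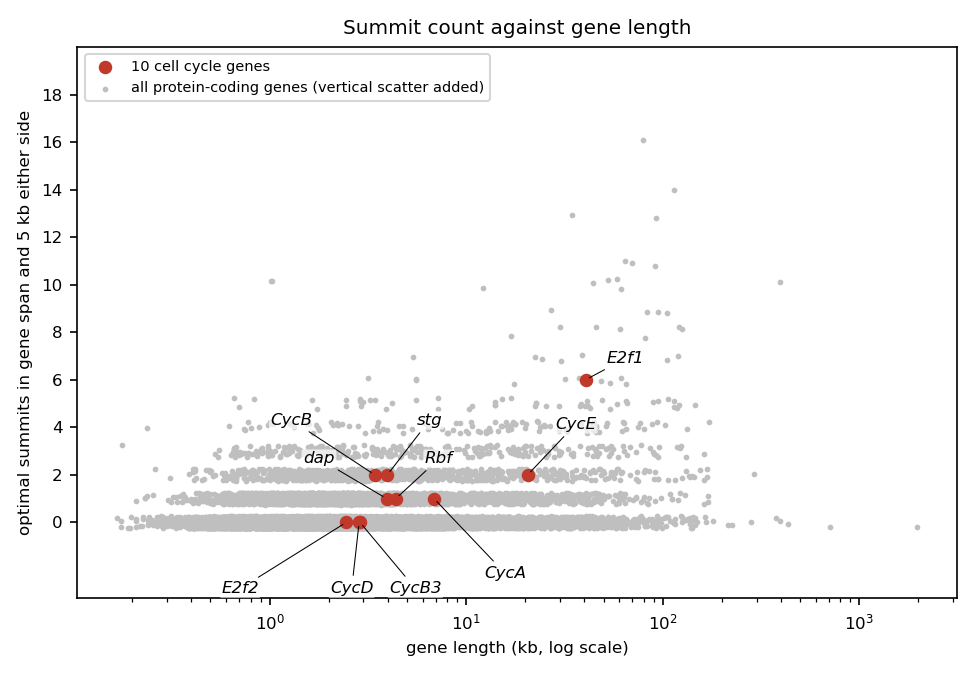
Number of optimal summits in the gene span and 5 kb either side against gene length in kb (log scale), for the 10 genes (red) and all 13945 protein-coding genes (grey, with vertical scatter added). E2f1 stands at 6 summits, CycE, CycB and stg at 2, and E2f2, CycD and CycB3 at 0.

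The rest of the cell cycle machinery was taken as 66 further genes in 4 lists by role. An optimal promoter summit was found at 5 of the 66 (7.58%), and an optimal summit in the window at 21 (31.8%), both near the shares of all genes given above. By role, promoter summits were found at 1 of 11 other E2F, Rb and DREAM complex genes, 1 of 17 other cyclin and Cdk genes, 2 of 18 genes of mitotic entry, checkpoints and cyclin destruction, and 1 of 20 S phase genes.

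Of these 5, the strongest was at Dp, the partner of both E2F proteins. It lay at 2R 13223488, 103 bp upstream of a start, with a signal of 168 (rank 535), and 72.3 and 111 in replicates 1 and 2. CycG, whose protein was reported to bind Corto in Drosophila, had a weak one at 3R 31610186, 371 bp upstream of a start, with a signal of 83.4 (33.9 and 43.2 in the replicates). That at fzy, the Cdc20 gene, was 28 bp upstream (115), with 64.7 in replicate 1 and no replicate 2 summit closer than 4378 bp. The summit near aurA, the Aurora A kinase gene, was 199 bp upstream (83.9) but 120 bp from CG3281, and that of RnrS, a ribonucleotide reductase subunit gene, was 208 bp upstream (91.9). The promoters of PCNA and of the listed Orc and Mcm genes had no optimal summit, where 9.90% of all genes had one. Those of PCNA, Orc2, Mcm2, Mcm5 and Mcm7 did have entries in the pooled list. Of the 5 genes with an optimal promoter summit, Dp alone had a promoter summit among the 2644 strongest entries of each replicate taken on its own, and those of fzy, aurA and RnrS were found in replicate 1 and not in replicate 2.

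**Figure D4:**
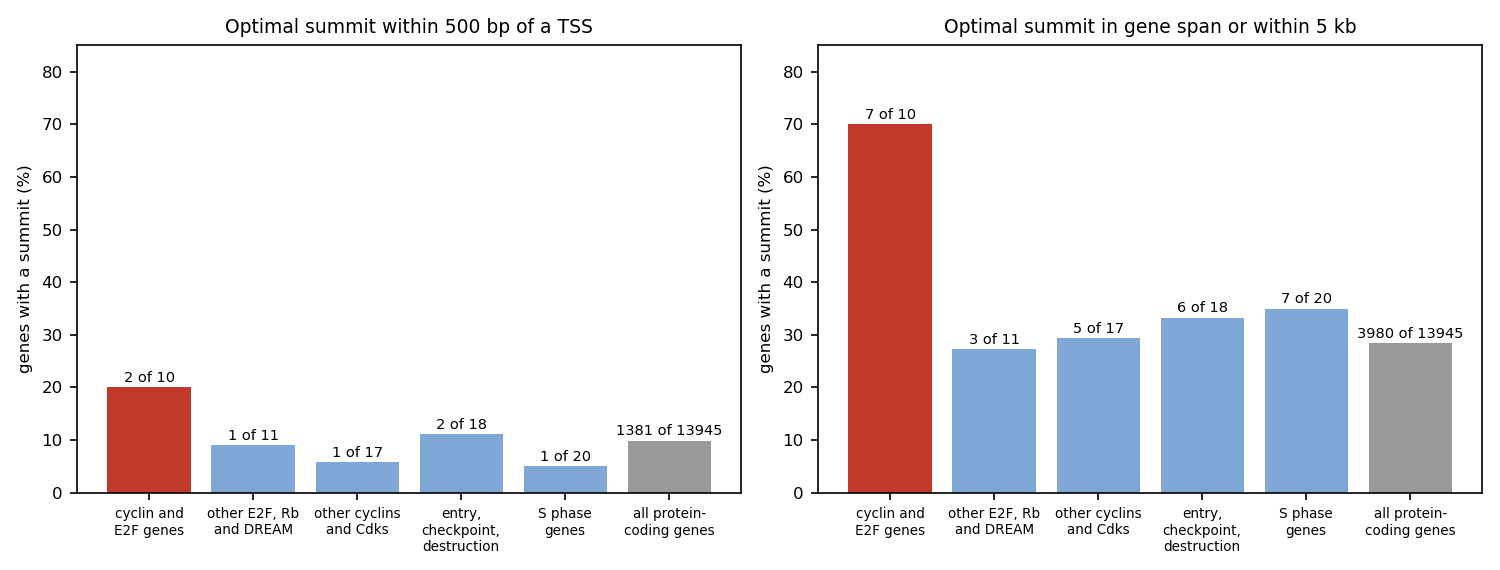
Percent of genes with an optimal summit within 500 bp of a TSS (left) and in the gene span or within 5 kb (right), for the 10 cyclin and E2F genes (red), 4 further cell cycle lists (blue) and all protein-coding genes (grey), with counts above the bars. The 10 genes stand at 20% and 70%, the other lists between 5% and 11.1% on the left and between 27.3% and 35% on the right, and all genes at 9.90% and 28.5%.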

How the data were processed

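Corto-GFP ChIP-seq was measured in 2 biological replicates of whole embryos, with chromatin sonicated to 200 to 800 bp, per the labels. According to notes deposited beside the lists, the authors made 30000 entries of peaks and background per replicate and for the pooled reads, with a control, and derived the optimal set by IDR. The peak signal is the deposited signal column of the narrowPeak format. The sources used here do not name the aligner, peak caller, IDR threshold or filters on reads, and control reads were not analysed here.

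Lists on dm6 were used; the dm3 lists were not. The summit is the peak start plus the deposited offset. Genes came from Ensembl release 115 (BDGP6.54) and bases from the NCBI FASTA of that assembly, in which 99.5% of coding transcripts started with ATG and all peaks ended inside the arms. Python 3.11.15 with numpy 2.4.6 and matplotlib 3.10.9 was used, and counting was tested on simulated data.

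The members and lists were chosen with earlier results of these data known, so counts are set beside shares of all genes without a test. Named genes were the 10 members, the genes nearest to their summits and list genes with an optimal promoter summit. The 66 list genes all matched, 1 through an older symbol. Alternatives were other windows, flanks, matching distances, each replicate alone, the 1322 strongest optimal peaks, summits merged within 500 bp, and the nearest TSS.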

Additional observations from a re-analysis of the deposited data

How the results depend on the processing

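The 15 matches in both replicates and the 6 genes with a pooled promoter entry stayed within 1.5 times under the settings tried. The 7 genes with a window summit became 4 in the gene span alone and 4 when a summit counted only for the closest TSS of any gene, and ran from 5 to 8 otherwise. The 15 summits became 8 in the gene span alone. In settings added after the data were seen, they became 6 among the 1322 strongest peaks and 5 by that closest TSS. They ran from 12 to 18 otherwise. The 2 genes with an optimal promoter summit became 1 within 250 bp, 1 among the 1322 strongest peaks, 1 without replicate 1 (dap) and 1 without replicate 2 (E2f1). They were 3 within 1000 bp and 2 by closest TSS. The 5 promoter summits of the 66 further genes became 2 without replicate 1 (Dp and Cdk12) and 7 without replicate 2, where Mcm2, Mcm5 and Prim1 entered and CycG did not stay. Among single genes, 40 of 60 counts stayed within 1.5 times and 20 did not. The cause was not tested. No paired analysis was possible because there is 1 group.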

Other observations

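Among the 66 further genes, trbl was looked at after its values were seen. It encodes Tribbles, which promotes degradation of the String phosphatase and so acts against stg. It had 3 optimal summits in its window, all nearest to its own start: in introns at 3L 20398585 (signal 146) and 3L 20399935 (185), and 1387 bp upstream at 3L 20402996 (122). Replicates 1 and 2 had signals of 54.3 and 80.7 at the first, 87.1 and 76.4 at the second, and 67.5 and 52.4 at the third. Its promoters had no optimal summit and no pooled entry. The CycG window held 4 optimal summits, the strongest (240) 42 bp upstream of Mnat9 and another (188) 65 bp upstream of CG1774, and the lin-52 window held one with a signal of 285, 77 bp upstream of CG15771. Of the 31 optimal summits in the windows of these 66 genes, 9 were nearest to a start of the listed gene.

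Near E2f2, replicate 1 alone had a strong entry. It lay at 2L 21158739, 1990 bp upstream of E2f2 and 108 bp upstream of Pld3, with a signal of 111 and rank 304 of 30000. The nearest replicate 2 and pooled summits were 2159 and 2102 bp away. Up to that rank, 8 entries of replicate 1 (2.63%) and 0 of replicate 2 had no summit of the other replicate or the pooled list within 500 bp.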
